A study of Mus musculus with 71 samples.

Results

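The 10 genes Mpo, Elane, Prtn3, Ctsg, C1qa, C1qb, C1qc, Fcna, Cd5l and Cd36, which mark granulocytes and macrophages, were followed through RNA-seq libraries of sorted mouse pro-B cells and lymphoid progenitors. They were taken by symbol, with no threshold on their values, but were chosen with earlier results of these data known. A share of all genes set beside a count of the 10 is therefore a description only. All 10 were found among the 25579 genes of the Pax5 tables and among the 24420 genes of the lymphoid tables. Mpo, Elane, Prtn3 and Ctsg code for myeloperoxidase, neutrophil elastase, proteinase 3 and cathepsin G, the peroxidase and the serine proteases of neutrophil primary granules, and are called granule genes here. C1qa, C1qb and C1qc code for the chains of C1q, the recognition protein of the classical complement pathway. Fcna codes for ficolin A, a lectin of the complement system, Cd5l for a secreted scavenger receptor protein of macrophages, and Cd36 for a scavenger receptor that takes up lipids. These 6 are called macrophage genes.

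Primary granule proteins are transcribed in promyelocytes and in earlier progenitors, and mature neutrophils keep the proteins but little of the mRNA. C1q, ficolin A and CD5L are made mainly by tissue macrophages, whereas CD36 is also found on monocytes, platelets, erythroid precursors, endothelium and some B cells. Pax5 is the transcription factor that commits progenitors to the B cell lineage and that represses genes of other lineages. None of the 10 genes is a marker of pro-B cells or of T cell progenitors.

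The study removed parts of Pax5 in C57BL/6 mice and measured polyadenylated RNA of sorted bone marrow cells. Of the 71 samples of the series, 31 libraries belong to the Pax5 comparison (25 of the first experiments and 6 of an experiment with the Prd allele) and 17 to lymphoid stages. The deletions, written with D, removed the octapeptide (OP), the partial homeodomain (HD), both (OP,HD), or the C-terminal regulatory domains CRD1, CRD2 or both (CRD1,2), the last 3 on both alleles or opposite a null allele (-). The remaining samples of the series, which map chromatin, were not used here.

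Pax5(+/+) pro-B cells were measured in 5 libraries and each of the other genotypes in 2. Pax5(+/+) cells, the central deletions Pax5(DOP,HD/DOP,HD), Pax5(DOP/DOP) and Pax5(DHD/DHD) and the C-terminal deletions Pax5(DCRD1/-), Pax5(DCRD2/-), Pax5(DCRD1/DCRD1) and Pax5(DCRD2/DCRD2) were sorted as pro-B cells, which were B220+, Kit+ and negative for CD2, IgM and IgD. Pax5(DCRD1,2/DCRD1,2), Pax5(DCRD1,2/-) and Vav-Cre Pax5(fl/fl) cells were sorted as lineage-negative, Ly6D+, B220+ progenitors with high Kit. The antibody mix of that lineage-negative gate held CD11b, Gr1 and Ly6C, which mark myeloid cells, and no myeloid marker is named for the pro-B gate. In the Prd experiment Vav-Cre Pax5(fl/+) cells came from the pro-B gate, and Vav-Cre Pax5(Prd/fl) and Vav-Cre Pax5(fl/fl) cells from the lineage-negative gate. Vav-Cre deletes the floxed allele in haematopoietic cells, and the Prd allele expresses the paired domain alone. In the comparisons across gates, gate and genotype cannot be told apart. The lymphoid stages were lymphoid-primed multipotent progenitors (LMPP) of bone marrow and the thymic double-negative stages DN1, DN2a, DN2b, DN3a and DN3b of wild-type mice, with Rag2(-/-) DN3a cells beside them. Whether the libraries of a group came from separate mice is not given in the labels, so that the p-values measure the spread between libraries, which may be technical.

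Levels are given as TPM, which divides the reads of a gene by its transcript length and by the depth of the library. The Pax5 libraries held between 10018678 and 43784791 reads over genes. Cd79a, which codes for a signalling chain of the B cell receptor, stood at 2597 to 4361 TPM in Pax5(+/+) libraries and at 439 to 1756 TPM in the lineage-negative libraries. Differences were fitted with limma on log2(TPM + 0.1) over all genes that reached 1 TPM in at least 1 library of a fit, which all 10 genes did in the Pax5 fits and all but Cd36 in the lymphoid fit. A gene is called where its Benjamini-Hochberg adjusted p was below 0.05, and a fold so fitted understates the change of low genes. Counts at an unadjusted p, and of libraries that do not overlap, were made for the 10 genes only, so that no share of all genes stands beside them.

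The gene loci lie in a few clusters. Prtn3 (chr10:79879667-79883174) and Elane (chr10:79886312-79888216) are neighbours, and C1qb (chr4:136880126-136886200), C1qc (chr4:136889801-136892936) and C1qa (chr4:136895916-136898844) lie side by side. Mpo (chr11:87793784-87804412), Ctsg (chr14:56099885-56102574), Fcna (chr2:25624665-25635440), Cd5l (chr3:87357881-87371074) and Cd36 (chr5:17781690-17888959) lie on other chromosomes, all positions being those of build GRCm38.p6.

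Promoters are shown for the granule genes and for C1qb because the granule genes and the C1q genes mostly moved as sets in the values below. The set of RefSeq promoters used here had an entry for 9 of the 10 genes and none for C1qa. The entries of Fcna (chr2:25627975-25628224) and Cd36 (chr5:17835897-17836146) lie inside the gene spans given above. AGGAAGT contains GGAA, the core of the sites of ETS factors such as PU.1, a factor of myeloid cells. It was chosen after the sequences had been seen and was searched on both strands from 250 bases before to 50 bases after the start. It occurred in 7 of the 9 genes (Mpo, Elane, Prtn3, Ctsg, C1qb, C1qc and Fcna) and in 9.35% of 32851 promoters of that length. TTGCNNAA, a core that C/EBP factors bind, occurred in 0 of the 9 genes and in 10.8% of the promoters. The lines give the 250 bases before the start on the gene's strand, 5′ to 3′, with AGGAAGT or its complement ACTTCCT in capitals. They are chr11:87793534-87793783 on the plus strand (Mpo), chr10:79886062-79886311 on the plus strand (Elane), chr10:79879417-79879666 on the plus strand (Prtn3), chr14:56102575-56102824 on the minus strand (Ctsg) and chr4:136886201-136886450 on the minus strand (C1qb).
Mpo: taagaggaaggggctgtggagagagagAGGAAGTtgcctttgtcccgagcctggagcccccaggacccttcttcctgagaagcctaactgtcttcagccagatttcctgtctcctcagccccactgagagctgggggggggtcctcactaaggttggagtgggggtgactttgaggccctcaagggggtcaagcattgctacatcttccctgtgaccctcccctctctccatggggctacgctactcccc
Elane: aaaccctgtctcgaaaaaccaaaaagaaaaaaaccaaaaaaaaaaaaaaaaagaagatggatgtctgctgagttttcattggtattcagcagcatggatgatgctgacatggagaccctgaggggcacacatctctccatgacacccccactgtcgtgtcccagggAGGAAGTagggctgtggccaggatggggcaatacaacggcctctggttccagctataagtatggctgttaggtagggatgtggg
Prtn3: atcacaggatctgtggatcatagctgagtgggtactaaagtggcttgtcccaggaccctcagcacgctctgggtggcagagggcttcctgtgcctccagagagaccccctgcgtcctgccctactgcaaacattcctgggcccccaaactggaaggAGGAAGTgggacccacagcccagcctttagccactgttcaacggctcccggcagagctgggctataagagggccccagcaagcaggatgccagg
Ctsg: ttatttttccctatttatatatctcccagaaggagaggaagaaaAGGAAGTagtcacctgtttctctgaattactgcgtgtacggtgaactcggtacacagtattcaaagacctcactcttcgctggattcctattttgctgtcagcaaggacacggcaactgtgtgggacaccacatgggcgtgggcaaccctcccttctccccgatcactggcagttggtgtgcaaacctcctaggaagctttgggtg
C1qb: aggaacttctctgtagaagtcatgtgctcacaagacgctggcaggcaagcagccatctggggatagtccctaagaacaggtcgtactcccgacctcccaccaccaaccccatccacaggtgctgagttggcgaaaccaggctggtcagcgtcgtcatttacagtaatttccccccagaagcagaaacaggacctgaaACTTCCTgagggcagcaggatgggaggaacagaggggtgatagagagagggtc

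The match lay 223 bases before the start in Mpo, 84 in Elane, 94 in Prtn3, 206 in Ctsg and 53 in C1qb, so that the 4 granule genes share the letters but not their place. A match is a description of the sequence only.

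Granule genes were detected in every Pax5(+/+) library and were uneven among them. Mpo stood at 26.7, 29.8, 23.9, 99.1 and 72.0 TPM in replicates 1 to 5. Ctsg stood at 4.66, 3.36, 4.68, 25.9 and 9.91 TPM in the same order. Replicates 4 and 5 were the highest for both genes, and for Elane (12.3 to 55.6 TPM) and Prtn3 (8.47 to 53.8 TPM) as well. Over the 31 libraries Mpo ran from 3.28 to 970 TPM, with a median of 21.5 TPM.

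Pax5(DOP/DOP) was the genotype with high granule gene levels in both libraries. There Mpo stood at 647 and 970 TPM, against 23.9 and 99.1 TPM in Pax5(+/+) replicates 3 and 4, the controls used for the central domain deletions. Elane stood at 178 and 349 TPM, Prtn3 at 219 and 417 TPM and Ctsg at 113 and 156 TPM. For each of the 4 genes both Pax5(DOP/DOP) libraries lay above all 5 Pax5(+/+) libraries, which was not counted over all genes. On the log2(TPM + 0.1) scale the fitted differences from the controls were 4.02 (SE 1.18) for Mpo, 3.25 for Elane, 3.81 for Prtn3 and 3.58 for Ctsg. None passed limma with Benjamini-Hochberg adjustment over 12996 genes, where the lowest adjusted p among the 10 genes was 0.141, for Mpo, and 0.485% of all genes were called. An unadjusted p under 0.05 was reached by 4 of the 10 genes, edgeR on the reads recovered from the TPM values called 0, and DESeq2 called 1 (Mpo, adjusted p = 0.0389). The median difference was 3.70 for the granule genes, 0.34 for the macrophage genes and -0.03 for all genes tested.

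The other central deletions held granule gene levels in the range of Pax5(+/+) or near it, with replicates far apart. Mpo stood at 6.92 and 57.1 TPM in Pax5(DHD/DHD) and at 18.1 and 132 TPM in Pax5(DOP,HD/DOP,HD). Elane followed with 5.28 and 25.9 TPM and with 13.2 and 92.5 TPM. In both genotypes the second library was the higher one for all 4 granule genes, by 4.92-fold to 8.25-fold in Pax5(DHD/DHD) and by 6.53-fold to 7.83-fold in Pax5(DOP,HD/DOP,HD). The differences from Pax5(+/+) were -0.73 to -1.28 in Pax5(DHD/DHD), with adjusted p between 0.737 and 0.885 in limma and overlapping groups. When the Pax5(DOP/DOP) and Pax5(DHD/DHD) libraries were set against each other, Mpo differed by 5.30 (SE 1.18, limma adjusted p = 0.0518), Ctsg by 4.78 (adjusted p = 0.0587), Elane by 4.40 (adjusted p = 0.0726) and Prtn3 by 4.54 (adjusted p = 0.0896). With the same reads all 4 were called by edgeR, at adjusted p between 0.0142 and 0.0298, and by DESeq2, between 0.00492 and 0.0330.

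Pax5(DCRD2/-) had the widest gaps between replicates for the 4 granule genes, and Pax5(DCRD2/DCRD2) wide ones. Mpo stood at 454 and 11.9 TPM in Pax5(DCRD2/-), and Ctsg at 113 and 1.34 TPM. In Pax5(DCRD2/DCRD2) Mpo stood at 171 and 18.3 TPM and Ctsg at 47.2 and 3.83 TPM. The first library was the higher one in both genotypes and for all 4 granule genes, by 24.0-fold to 84.7-fold in Pax5(DCRD2/-) and by 9.33-fold to 12.5-fold in Pax5(DCRD2/DCRD2). The first libraries lay above all Pax5(+/+) libraries and the second below their highest. Neither genotype had a member called against Pax5(+/+) in limma, where 0.513% and 0.0447% of all genes were called. An unadjusted p under 0.05 was reached by 3 and by 1 of the 10 genes, and edgeR and DESeq2 called 0 members in either.

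Deletion of CRD1 went with granule gene levels that were low or near those of Pax5(+/+). Mpo stood at 3.28 and 11.2 TPM in Pax5(DCRD1/-), below all 5 Pax5(+/+) libraries, and at 27.3 and 21.2 TPM in Pax5(DCRD1/DCRD1). Ctsg stood at 1.85 and 2.86 TPM in the first genotype and at 8.64 and 5.38 TPM in the second. For the 4 granule genes the limma differences of Pax5(DCRD1/-) from Pax5(+/+) ran from -2.00 to -2.98, with adjusted p from 0.280 to 0.509. The hemizygous, homozygous and knockout comparisons all used the same 5 Pax5(+/+) libraries, and their results are therefore not independent of each other.

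**Figure D1:**
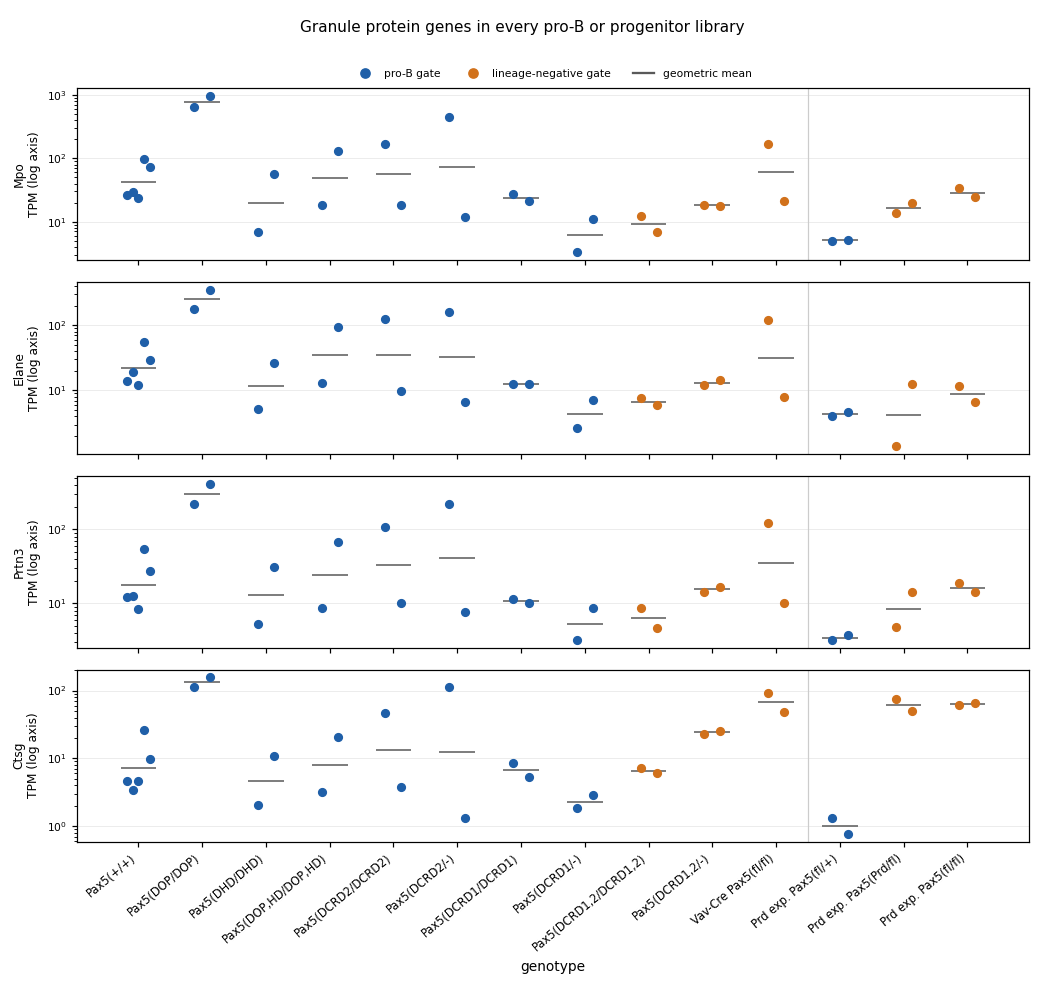
Level of Mpo, Elane, Prtn3 and Ctsg in each of the 31 Pax5 libraries, in TPM on a log axis, by genotype, with pro-B gate libraries in blue, lineage-negative libraries in orange, the geometric mean as a line and the Prd experiment behind the vertical line. Pax5(DOP/DOP) is high in both libraries (Mpo 647 and 970 TPM), whereas Pax5(DCRD2/-) holds one high and one low library (454 and 11.9 TPM).

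The C1q genes were lower and more even than the granule genes. In Pax5(+/+) replicates 1 to 5 C1qa stood at 7.88, 10.8, 15.3, 16.5 and 6.09 TPM, C1qb between 6.87 and 17.0 TPM and C1qc between 7.01 and 16.5 TPM. Replicates 3 and 4 were the highest for all 3 chains. C1qb was highest in replicate 3, which had the least Mpo, and C1qa and C1qc in replicate 4, which had the most. In Pax5(DOP/DOP) C1qa stood at 19.3 and 22.7 TPM, above all Pax5(+/+) libraries, and C1qc at 16.9 and 17.0 TPM. The fitted differences were 0.40 for C1qa, 0.44 for C1qb and 0.07 for C1qc, and none was called.

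In Pax5(DHD/DHD) the C1q genes, Fcna and Cd36 were low. C1qa stood at 5.49 and 3.94 TPM, C1qb at 5.61 and 3.51 TPM and C1qc at 5.33 and 4.50 TPM, each below all 5 Pax5(+/+) libraries. Fcna stood at 2.23 and 1.92 TPM, against 11.0 and 8.21 TPM in the controls. Cd5l stood at 2.19 and 0.698 TPM, which overlapped the Pax5(+/+) libraries, and was not called (-1.42, limma adjusted p = 0.374). In limma C1qa fell by 1.75 (SE 0.28, adjusted p = 0.0476) on the log2 scale, C1qc fell by 1.71 (adjusted p = 0.0476) and Fcna fell by 2.15 (adjusted p = 0.0422), whereas C1qb was at -1.87 with an adjusted p of 0.0692. With Cd36, 4 of the 10 genes were called lower, beside 0.308% of all genes called lower and 0.639% called in either direction. These 3 calls sat near the threshold and were lost in most of the 17 alternative fits, C1qa keeping it in 4, C1qc in 6 and Fcna in 4. In bulk RNA, fewer cells of a type and less RNA per cell cannot be told apart.

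Pax5(DOP/DOP) and Pax5(DHD/DHD) differed from each other in both sets of genes. Against Pax5(DHD/DHD), C1qa was higher by 2.15 (limma adjusted p = 0.00946), C1qb by 2.31 (adjusted p = 0.0142), C1qc by 1.77 (adjusted p = 0.0156) and Fcna by 2.35 (adjusted p = 0.0115) in Pax5(DOP/DOP). With Cd36, 5 of the 10 genes were called higher, beside 2.13% of all genes called higher and 3.96% called in either direction. All 10 were higher and at an unadjusted limma p under 0.05, a level at which the share of all genes was not counted. Leaving out a library of either genotype reduced the calls of the central comparisons together from 9 to 1.

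In Pax5(DOP,HD/DOP,HD) C1qa stood at 11.9 and 20.8 TPM and C1qb at 9.03 and 18.3 TPM, which overlapped Pax5(+/+). In that comparison limma called 0 of the 10 genes beside 1.22% of all genes, with 1 gene at an unadjusted p under 0.05, and edgeR and DESeq2 called 1, Cd36.

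Among the C-terminal deletions in the pro-B gate, Pax5(DCRD1/-) had the lowest C1q levels. C1qa stood at 3.21 and 3.72 TPM, C1qb at 3.08 and 3.85 TPM and C1qc at 2.38 and 3.75 TPM. Fcna stood at 0.674 and 2.56 TPM and Cd5l at 0.218 and 0.899 TPM. All 6 macrophage genes lay below every Pax5(+/+) library, a count not made over all genes. In limma C1qa fell by 2.17 (adjusted p = 0.00866), C1qb fell by 2.22 (adjusted p = 0.00578), C1qc fell by 2.40 (adjusted p = 0.00800), Fcna fell by 2.74 (adjusted p = 0.0110) and Cd5l fell by 2.68 (adjusted p = 0.0171). All 6 were called lower, beside 4.66% of all genes called lower and 8.51% in either direction. In Pax5(DCRD1/DCRD1), where the same domain was missing from both alleles, C1qa stood at 10.3 and 9.84 TPM, inside the Pax5(+/+) range, and the 9 genes other than Cd36 differed by -0.68 to 0.43 with no call. The homozygous and the hemizygous genotype were not compared with each other in a test, and they differ in read length. Pax5(DCRD1/DCRD1), Vav-Cre Pax5(fl/fl) and Pax5(+/+) replicates 1, 2 and 5 were sequenced with 50-nt reads and the other libraries with 100-nt reads, trimmed to 50. C1qa ran from 6.09 to 10.8 TPM in the 50-nt Pax5(+/+) libraries and stood at 15.3 and 16.5 TPM in the 100-nt ones.

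Pax5(DCRD2/DCRD2) again held a high and a low library for the macrophage genes. C1qa stood at 23.9 and 8.69 TPM, Fcna at 16.4 and 4.71 TPM and Cd5l at 10.8 and 2.31 TPM. In Pax5(DCRD2/-) C1qa stood at 13.2 and 4.93 TPM and Fcna at 6.96 and 3.32 TPM. The first library of each genotype, which held more granule RNA, also held more of every macrophage gene.

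**Figure D2:**
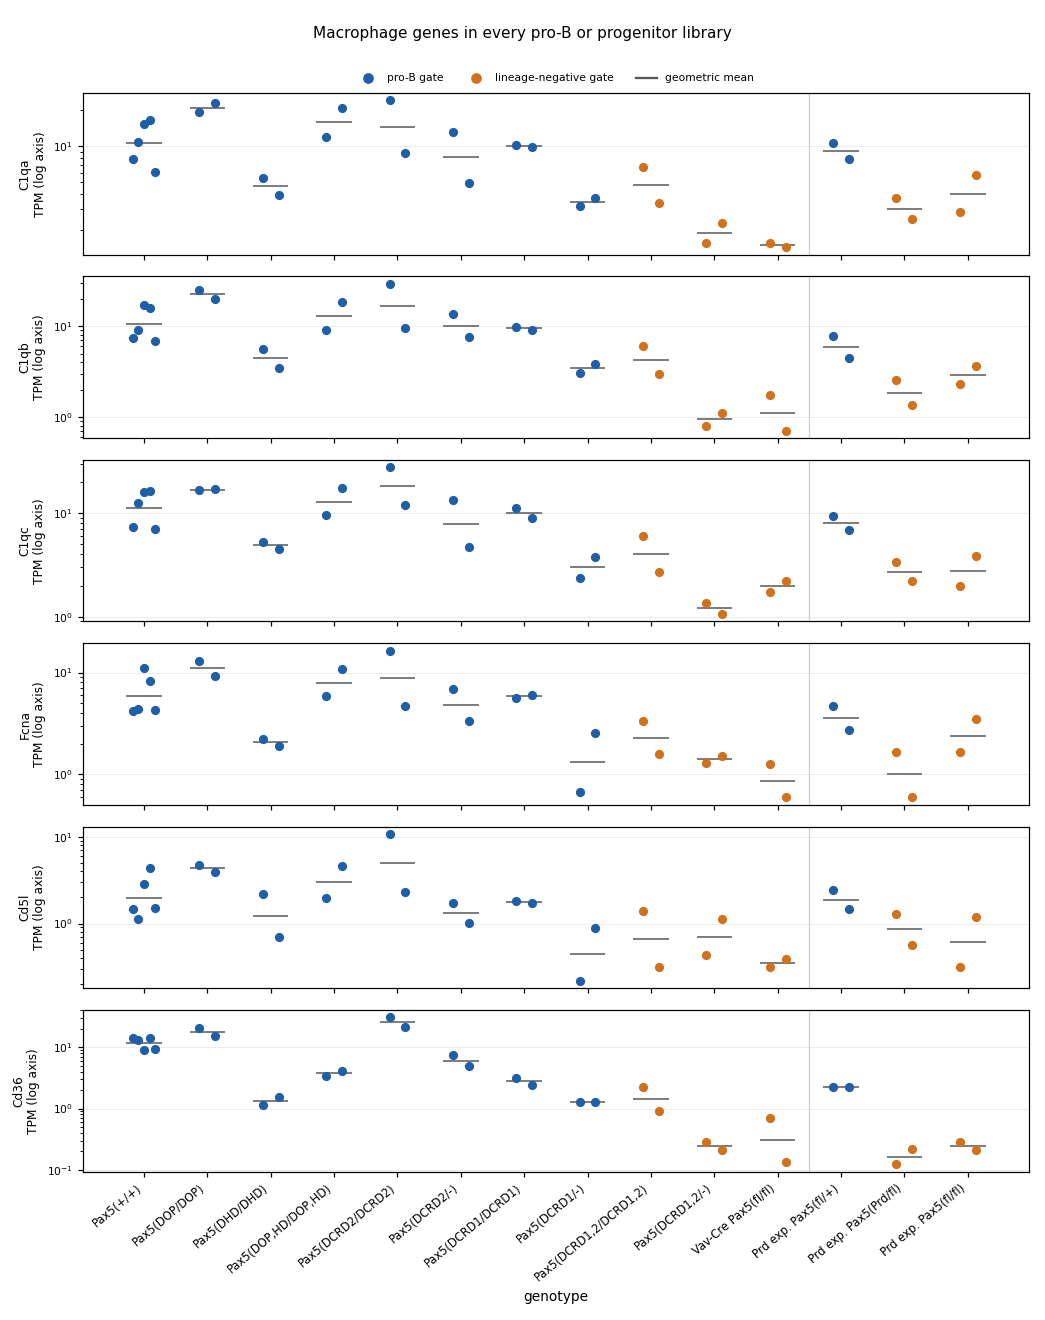
Level of the 6 macrophage genes in each of the 31 Pax5 libraries, in TPM on a log axis, with the colours and lines of the granule gene plot. C1qa, C1qb, C1qc and Fcna keep similar profiles over the genotypes, and Cd36 spans the widest range, from 0.123 to 30.8 TPM.

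Cd36 differed from the other macrophage genes in its profile. It stood at 14.4, 13.3, 8.90, 14.3 and 9.51 TPM in Pax5(+/+), at 1.12 and 1.53 TPM in Pax5(DHD/DHD) and at 3.45 and 4.07 TPM in Pax5(DOP,HD/DOP,HD). It stood at 20.4 and 15.1 TPM in Pax5(DOP/DOP). Replicates lay close together where those of the granule genes lay far apart, and every Pax5(DHD/DHD) and Pax5(DOP,HD/DOP,HD) library lay below every Pax5(+/+) library. The limma difference was -3.01 (SE 0.31, adjusted p = 0.0122) in Pax5(DHD/DHD), a call kept in 9 of 17 alternative fits. It was -1.57 (adjusted p = 0.0631) in Pax5(DOP,HD/DOP,HD), where edgeR gave an adjusted p of 0.00512 and DESeq2 one of 2.3e-07. Pax5(DOP/DOP) exceeded Pax5(DHD/DHD) by 3.65 (SE 0.31, limma adjusted p = 0.00165), and that call was kept in all alternatives.

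Cd36 was also low after deletion of CRD1 and high in Pax5(DCRD2/DCRD2). It stood at 3.15 and 2.43 TPM in Pax5(DCRD1/DCRD1) and at 1.28 and 1.27 TPM in Pax5(DCRD1/-). It stood at 30.8 and 21.6 TPM in Pax5(DCRD2/DCRD2) and at 7.37 and 4.91 TPM in Pax5(DCRD2/-). The homozygous CRD2 deletion lay above all Pax5(+/+) libraries and the hemizygous one below them. Against 12.1 ± 2.68 TPM (SD, n = 5) in Pax5(+/+), Cd36 fell by 3.05 (SE 0.51, limma adjusted p = 0.00366) in Pax5(DCRD1/-) and fell by 2.10 (SE 0.38, adjusted p = 0.0104) in Pax5(DCRD1/DCRD1). In the latter comparison it was the only one of the 10 genes called, beside 3.29% of all genes called lower and 5.98% in either direction, and the call was lost without either Pax5(DCRD1/DCRD1) library. For Pax5(DCRD2/DCRD2) the difference was 1.19 (adjusted p = 0.663), and for Pax5(DCRD2/-) -0.90 (adjusted p = 0.786). In the Prd experiment Vav-Cre Pax5(fl/+) cells, which came from the same pro-B gate with 1 functional allele, held 2.28 and 2.26 TPM of Cd36, while C1qa stood at 10.7 and 7.82 TPM.

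The spread within genotypes was set against that between genotypes over the 19 pro-B gate libraries of the first experiments, which cover 8 genotypes. On the log2 scale Mpo had a pooled SD within genotypes of 1.73 and an SD of the genotype means of 2.00, a ratio of 1.16. The ratio was 1.06 for Elane, 1.04 for Prtn3 and 0.906 for Ctsg. For these genes a replicate differed from its partner about as much as one genotype from another, and 97.0% to 98.3% of all genes had a smaller SD within genotypes. C1qa, C1qb and C1qc had an SD within genotypes of 0.60 each and ratios of 1.45, 1.49 and 1.48. For Cd36 the SD within genotypes was 0.30 and that of the genotype means 1.61, a ratio of 5.31. Fcna (ratio 1.40) and Cd5l (ratio 1.20) lay between the C1q and the granule genes. For the median gene the values were 0.25 and 0.25, with a median ratio of 0.942.

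**Figure D3:**
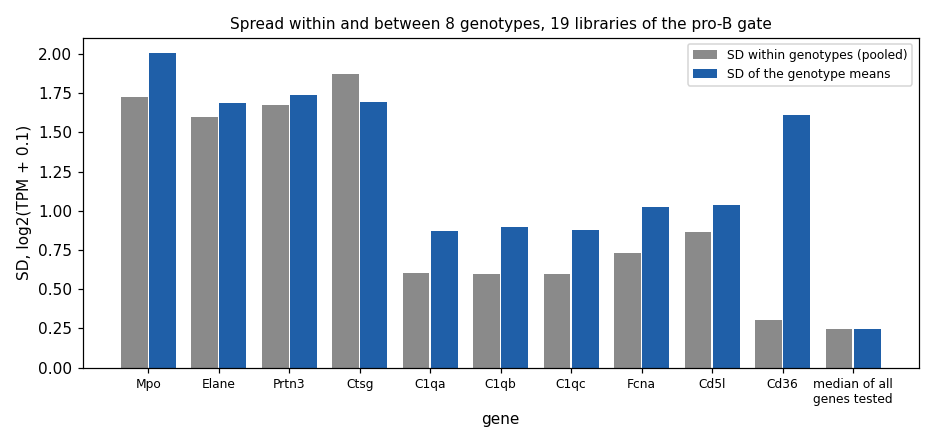
Pooled SD within genotypes (grey) and SD of the genotype means (blue), in log2(TPM + 0.1), for each of the 10 genes and for the median gene over 8 genotypes and 19 pro-B gate libraries. The grey bar is about as tall as the blue one for the granule genes (1.73 and 2.00 for Mpo) and far shorter for Cd36 (0.30 and 1.61).

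A limma F test over the same 8 genotypes asked whether any of them differed. It called 6 of the 10 genes, the 6 macrophage genes, beside 17.4% of all genes. The adjusted p was 7.42e-07 for Cd36, 0.00916 for C1qa, 0.00504 for C1qb, 0.00939 for C1qc, 0.0128 for Fcna and 0.0431 for Cd5l, whose call was kept in 10 of 30 alternative fits. For the granule genes it was 0.105 for Mpo, 0.157 for Elane, 0.180 for Prtn3 and 0.248 for Ctsg. The tools differed most for the granule genes, of which edgeR called Mpo (adjusted p = 0.0230), Prtn3 and Ctsg, and DESeq2 all 4. When Pax5(DCRD1/-) and Pax5(DHD/DHD), which had the lowest macrophage gene levels, were left out after the data had been seen, Cd36 alone was called. Without Pax5(DCRD1/-) replicate 1 the number of calls fell from 6 to 3.

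Within a replicate pair the granule genes and the C1q genes mostly moved together, and the 6 macrophage genes less often. Agreement was counted whatever the size of the gap, and was not counted for other sets of genes. Of the 13 genotypes with 2 libraries, the 4 granule genes were all higher in the same library in 9, the 3 C1q genes in 10 and the 6 macrophage genes in 5. All 10 genes were higher in the same library in 4 genotypes, which were Pax5(DOP,HD/DOP,HD), Pax5(DCRD2/DCRD2), Pax5(DCRD2/-) and Pax5(DCRD1,2/DCRD1,2). At least 1 granule gene differed more than 3-fold between the 2 libraries in 7 genotypes, and at least 1 macrophage gene in 6. In the CRD2 and OP,HD genotypes the gap was wider for the granule genes than for the macrophage genes, whose widest gaps were 4.68-fold, 2.85-fold and 2.31-fold.

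Other marker lists also differed between replicates, not all of them in the same genotypes. A list of 22 granulocyte genes, which includes the 4 granule genes, was summed without them over 18 genes, among them S100a8 and S100a9 (calprotectin), Ngp and Camp of later neutrophil granules. The sum ran from 935 to 7221 TPM in Pax5(+/+) and stood at 16550 and 1222 TPM in Pax5(DCRD2/-), 10427 and 673 TPM in Pax5(DCRD2/DCRD2), 697 and 7157 TPM in Pax5(DOP,HD/DOP,HD) and 539 and 1803 TPM in Pax5(DHD/DHD). The library with more granule RNA had more of this sum in each of the 4 genotypes. In Pax5(DOP/DOP) the sum stood at 6934 and 6513 TPM, inside the Pax5(+/+) range, although the granule genes lay above it. A list of erythroid genes stood at 1038 and 170 TPM in Pax5(DCRD2/DCRD2), at 189 and 563 TPM in Pax5(DOP,HD/DOP,HD) and at 173 to 490 TPM in Pax5(+/+). Megakaryocyte genes stood at 57.2 and 11.5 TPM, at 21.4 and 80.7 TPM and at 7.67 to 22.2 TPM. In Pax5(DCRD2/-), where the granule genes lay farthest apart, erythroid genes stood at 271 and 213 TPM and megakaryocyte genes at 22.9 and 14.2 TPM. In Pax5(DHD/DHD) erythroid genes stood at 139 and 125 TPM, the second library, which held more granule RNA, being the lower one. The part of such cells in the results was not tested.

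The wider lists were described by counts and medians. In Pax5(DOP/DOP) 20 of the 22 granulocyte genes were higher than in Pax5(+/+), with a median difference of 1.93 and 0 called, against a median of -0.03 for all genes. In Pax5(DHD/DHD) 21 of 22 were lower (median -1.28, 0 called). Of the 22 tested macrophage genes 21 were lower there (median -1.52), with 5 called beside 0.308% of all genes called lower. Other lists were also lower in Pax5(DHD/DHD), with 0 called. They were all 6 tested erythroid genes (median -1.55), all 11 monocyte genes (-0.93) and 5 of 6 megakaryocyte genes (-0.94). Of 4 tested endothelial genes 3 were higher. Hmox1, the haem oxygenase of macrophages that clear red cells, stood at 9.89 ± 1.9 TPM against 37.2 ± 1.7 TPM (SD, n = 2 each), so that it fell by 1.91 (limma adjusted p = 0.0185). Between Pax5(DOP/DOP) and Pax5(DHD/DHD) all 22 granulocyte and all 22 macrophage genes were higher in Pax5(DOP/DOP), with medians of 3.09 and 1.57 and with 0 and 7 called beside 2.13% of all genes called higher. Apoe, an apolipoprotein of macrophages, differed by 2.18 (limma adjusted p = 0.0107). All 11 monocyte, 6 erythroid and 6 megakaryocyte genes tested were higher in Pax5(DOP/DOP) too (medians 1.91, 2.01 and 1.33), and 1 of 4 endothelial genes. In Pax5(DCRD1/-) all 22 granulocyte genes were lower (median -2.94, 1 called), as were 8 of 20 macrophage genes by call (median -1.70), beside 4.66% of all genes called lower. In that genotype all 6 tested erythroid genes (median -1.85, 2 called), 8 of 11 monocyte genes (-1.22) and 3 of 6 megakaryocyte genes (-0.53) were lower. The granulocyte and macrophage lists include the 10 genes, which made up most of the calls of the macrophage list. They were 4 of the 5 called in Pax5(DHD/DHD) and 6 of the 8 called in Pax5(DCRD1/-). Between Pax5(DOP/DOP) and Pax5(DHD/DHD) they were 5 of the 7.

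Genes outside the 10 with the most similar profile over the 31 Pax5 libraries were ranked by Pearson's r of log2(TPM + 0.1), a description over libraries that share genotypes and gates. Among 11482 genes, those most like the mean of the granule genes were Hk3 (r = 0.94), Csf1r (0.94), Hdc (0.92), Anxa2 (0.92) and Hp (0.92). Those most like the mean of the C1q genes were Hmox1 (0.94), Apoe (0.93), March2 (0.89), Tgm2 (0.89) and Vcam1 (0.88). Among the 10 genes, r with the C1q mean was 0.94 for Fcna, 0.88 for Cd5l and 0.87 for Cd36 over the 31 libraries, and 0.96, 0.90 and 0.74 over the 21 pro-B gate libraries. The C1q genes had an r of 0.33 to 0.34 with the granule mean over the 31 libraries and of 0.68 to 0.74 over the 21 pro-B gate libraries.

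The lineage-negative progenitors were poor in macrophage RNA. C1qa stood at 6.78 and 3.40 TPM in Pax5(DCRD1,2/DCRD1,2), at 1.58 and 2.32 TPM in Pax5(DCRD1,2/-) and at 1.56 and 1.45 TPM in Vav-Cre Pax5(fl/fl). Cd36 stood at 2.25 and 0.915 TPM, at 0.279 and 0.213 TPM and at 0.694 and 0.133 TPM in the same order. For Cd36 all 6 libraries lay below every Pax5(+/+) library, and for C1qa all but the first Pax5(DCRD1,2/DCRD1,2) library did. In limma 6 of the 10 genes were called lower in Pax5(DCRD1,2/-), beside 12.3% of all genes called lower (20.2% in either direction), and the same 6 macrophage genes were called lower in Vav-Cre Pax5(fl/fl), beside 14.6% (31.7% in either direction). In Pax5(DCRD1,2/DCRD1,2) 5 were called lower, beside 13.3% (22.2% in either direction), while Cd5l was at -2.19 with an adjusted p of 0.0573. Cd36 fell by 5.05 (SE 0.51, adjusted p = 6.49e-05) in Pax5(DCRD1,2/-), fell by 4.84 (SE 0.47, adjusted p = 1.83e-05) in Vav-Cre Pax5(fl/fl) and fell by 2.88 (SE 0.41, adjusted p = 0.00106) in Pax5(DCRD1,2/DCRD1,2). The differences of C1qb were -3.98 (adjusted p = 6.30e-05), -2.67 (adjusted p = 0.000240) and -1.94 (adjusted p = 0.0157) in the same order. These comparisons cross the gates, and the myeloid antibodies of the lineage-negative gate move with the genotype. The calls of the homozygous C-terminal comparisons together fell from 6 to 2 without Pax5(+/+) replicate 3, Pax5(+/+) replicate 4 or Pax5(DCRD1,2/DCRD1,2) replicate 2.

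Granule genes varied among the lineage-negative genotypes. Mpo stood at 12.1 and 6.87 TPM in Pax5(DCRD1,2/DCRD1,2), at 18.6 and 18.0 TPM in Pax5(DCRD1,2/-) and at 171 and 21.5 TPM in Vav-Cre Pax5(fl/fl). Ctsg stood at 7.11 and 6.08 TPM, at 23.0 and 25.6 TPM and at 93.4 and 48.7 TPM. In Pax5(DCRD1,2/DCRD1,2) all 10 genes were lower than in Pax5(+/+), with a median difference of -1.84 for the granule genes and -1.99 for the macrophage genes. Mpo lay below all 5 Pax5(+/+) libraries in that genotype (-2.40, limma adjusted p = 0.107), and it was called by edgeR (adjusted p = 0.0492) and in limma without Pax5(DCRD2/DCRD2) replicate 1 (adjusted p = 0.0349) or replicate 2 (adjusted p = 0.0364). The Ctsg levels of Vav-Cre Pax5(fl/fl) lay above all Pax5(+/+) libraries, with 71.0 ± 31.6 TPM (SD, n = 2) against 9.70 ± 9.39 TPM (SD, n = 5). The difference was 3.62 (SE 1.38, adjusted p = 0.0686 in limma). It was called by edgeR (adjusted p = 0.0197) and DESeq2 (adjusted p = 0.0218), and in limma without Pax5(DCRD2/-) replicate 1 (adjusted p = 0.00265) or replicate 2 (adjusted p = 0.00294), a pair whose own gap enters the shared variance.

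The balance of Ctsg to Mpo differed between the gates. Over 21 pro-B gate libraries the ratio of their TPM levels ran from 0.112 to 0.564, with a median of 0.195. Over the 10 lineage-negative libraries it ran from 0.544 to 5.44, with a median of 1.62. The ranges met only at their ends. The ratio of Prtn3 to Elane ran from 0.653 to 1.36 and from 0.781 to 3.44, and overlapped. Within the pro-B gate the ratio of C1qb to C1qa ran from 0.567 to 1.54 and that of C1qc to C1qa from 0.743 to 1.37, whereas Cd36 to C1qa ran from 0.195 to 2.49. These ratios were not tested.

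**Figure D4:**
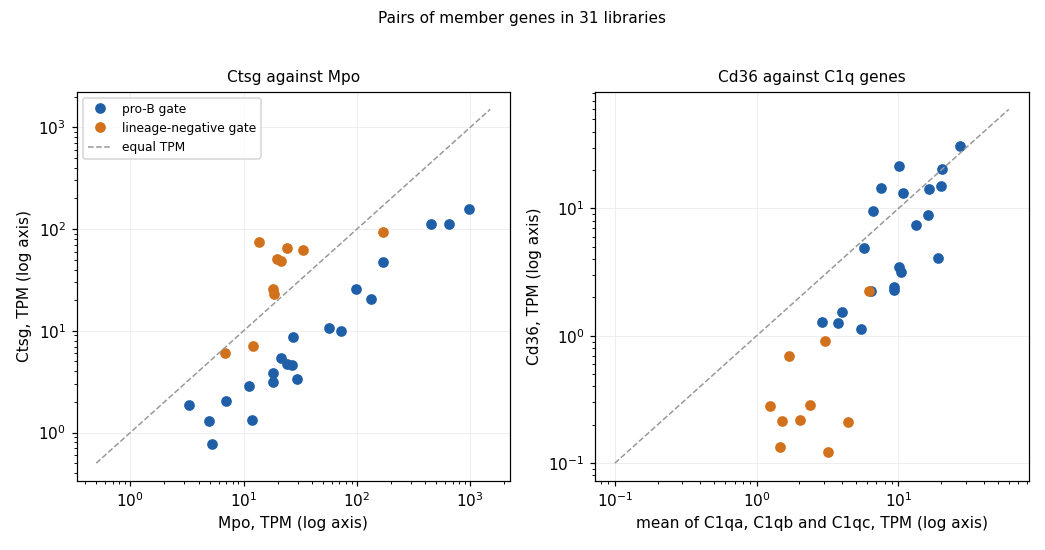
Ctsg against Mpo (left) and Cd36 against the mean of the C1q genes (right) in the 31 Pax5 libraries, in TPM on log axes, 1 point per library, with pro-B gate libraries in blue, lineage-negative libraries in orange and equal levels as a dashed line. The blue points lie below the line on the left (ratios of 0.112 to 0.564), most orange points lie above it (median 1.62), and on the right 9 of the 10 orange points lie below all blue points on the Cd36 axis.

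In the Prd experiment, fitted on its own 6 libraries, Ctsg and Mpo were higher in the progenitors than in the pro-B cells. Ctsg stood at 1.30 and 0.771 TPM in Vav-Cre Pax5(fl/+), at 74.2 and 50.4 TPM in Vav-Cre Pax5(Prd/fl) and at 61.5 and 64.9 TPM in Vav-Cre Pax5(fl/fl). Mpo stood at 4.96 and 5.22 TPM, at 13.6 and 19.8 TPM and at 33.7 and 24.1 TPM. For both genes all 4 lineage-negative libraries lay above both pro-B gate libraries. In limma Ctsg rose by 5.84 (SE 0.26, adjusted p = 3.69e-05) in Vav-Cre Pax5(fl/fl) and by 5.79 (adjusted p = 4.21e-05) in Vav-Cre Pax5(Prd/fl), and Mpo rose by 2.46 (SE 0.23, adjusted p = 0.000426) and by 1.67 (adjusted p = 0.00189). Prtn3 rose by 2.21 (adjusted p = 0.0110) in Vav-Cre Pax5(fl/fl) and was at 1.25 (adjusted p = 0.0738) in Vav-Cre Pax5(Prd/fl). Elane stood at 1.40 and 12.5 TPM in Vav-Cre Pax5(Prd/fl), against 4.08 and 4.72 TPM in Vav-Cre Pax5(fl/+), and its difference of -0.05 became 1.49 without the first library and -1.58 without the second.

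The macrophage genes went the other way in the Prd experiment. C1qa stood at 10.7 and 7.82 TPM in Vav-Cre Pax5(fl/+), at 3.72 and 2.48 TPM in Vav-Cre Pax5(Prd/fl) and at 2.83 and 5.75 TPM in Vav-Cre Pax5(fl/fl). Cd36 stood at 0.123 and 0.218 TPM in Vav-Cre Pax5(Prd/fl), below the 2.28 and 2.26 TPM of Vav-Cre Pax5(fl/+). Against Vav-Cre Pax5(fl/+), 3 genes were called higher and 3 lower in Vav-Cre Pax5(fl/fl), beside 20.8% and 19.1% of all genes (39.9% in all). In Vav-Cre Pax5(Prd/fl) 2 were called higher and 5 lower, beside 24.1% and 16.6% (40.7% in all). In Vav-Cre Pax5(fl/fl) the limma differences were -1.16 for C1qa (adjusted p = 0.0482), -1.50 for C1qc (adjusted p = 0.0185) and -2.77 for Cd36 (SE 0.45, adjusted p = 0.00399). In Vav-Cre Pax5(Prd/fl) they were -1.56 (adjusted p = 0.0171), -1.53 (adjusted p = 0.0171) and -3.15 (adjusted p = 0.00242) in the same order, and C1qb (-1.61, adjusted p = 0.0226) and Fcna (-1.74, adjusted p = 0.0443) were called as well. Both comparisons share the Vav-Cre Pax5(fl/+) libraries. Without either of those libraries the calls of the experiment fell from 13 to 6.

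Between the progenitors of the Prd experiment, which share a gate, limma called 0 of the 10 genes beside 1.97% of all genes. Mpo was at -0.79 in Vav-Cre Pax5(Prd/fl) relative to Vav-Cre Pax5(fl/fl) (adjusted p = 0.146), the 1 gene at an unadjusted p under 0.05. DESeq2 called Mpo (adjusted p = 0.00869), and edgeR called 0.

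In wild-type lymphoid development the granule genes were highest at the earliest stages and then fell. Mpo stood at 1273 and 1498 TPM in LMPP, at 1567, 1604 and 1769 TPM in DN1, at 426, 442 and 469 TPM in DN2a, at 5.79, 9.46 and 20.5 TPM in DN2b, at 0.287 and 0 TPM in DN3a and at 0.170 and 0 TPM in DN3b. Ctsg stood at 147 and 130 TPM, at 76.6, 82.8 and 85.3 TPM, at 35.8, 37.2 and 39.5 TPM and at 2.08, 2.61 and 3.65 TPM up to DN2b. From DN1 to DN3a the libraries of neighbouring stages did not overlap for either gene. DN3a and DN3b could not be told apart for them, since 1 library of each was listed at 0 for Mpo.

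The proteases of the Prtn3 and Elane locus parted at these stages. Prtn3 stood at 695 and 751 TPM in LMPP and at 73.0, 89.9 and 95.6 TPM in DN1. Elane stood at 4.00 and 5.02 TPM in LMPP and at 80.7, 86.2 and 103 TPM in DN1. The ratio of Prtn3 to Elane was 150 to 174 in LMPP and 0.904 to 1.04 in DN1. In limma over 17 libraries Elane rose from LMPP to DN1 by 4.29 (SE 0.51, adjusted p = 3.39e-05) and Prtn3 fell by 3.08 (adjusted p = 0.00247), whereas Mpo was at 0.25 (adjusted p = 0.814) and Ctsg at -0.76 (adjusted p = 0.288). With 5 macrophage genes, 1 of the 9 tested genes was called higher and 6 lower, beside 6.73% and 11.9% of all genes (18.6% in all).

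The granule genes fell further at the later steps. From DN1 to DN2a Elane fell by 8.56 (limma adjusted p = 4.01e-08) to between 0.124 and 0.153 TPM, Prtn3 fell by 4.16 (adjusted p = 8.20e-05) to between 3.80 and 6.92 TPM and Mpo fell by 1.88 (adjusted p = 0.00970). With Ctsg (-1.12, adjusted p = 0.0436) all 4 granule genes were called lower, beside 22.9% of all genes called lower and 33.7% in either direction, and the call of Ctsg was kept in 11 of 28 alternative fits. From DN2a to DN2b Mpo fell by 5.41 (adjusted p = 3.58e-06), Ctsg fell by 3.74 (adjusted p = 1.54e-05) and Prtn3 fell by 2.72 (adjusted p = 0.00298), beside 8.43% called lower and 18.2% in either direction. From DN2b to DN3a all 4 were called lower, beside 14.4% called lower and 45.8% in either direction, and Mpo fell by 5.74 (adjusted p = 2.66e-06). Elane was listed at 0 in both DN3a libraries, and its call there turned when values of exactly 1, read as 0, were kept. From LMPP to DN3b all 9 tested genes were called lower, beside 36.1% called lower and 59.1% in either direction, with a median of -0.18 for all genes.

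The macrophage genes were found in LMPP and hardly in the thymus. C1qa stood at 16.1 and 10.4 TPM in LMPP, C1qb at 13.6 and 8.77 TPM, C1qc at 17.6 and 12.7 TPM, Fcna at 5.15 and 3.45 TPM and Cd5l at 4.04 and 3.38 TPM. In DN1 C1qa stood at 0, 0.194 and 0.289 TPM. In the wild-type thymic stages C1qa was at most 0.585 TPM, C1qb at most 0.597 TPM, Fcna at most 0.103 TPM and Cd5l at most 0.159 TPM, while C1qc reached 1.15 TPM in 1 DN3a library. From LMPP to DN1 C1qa fell by 5.86 (limma adjusted p = 1.61e-05), C1qb fell by 5.76 (adjusted p = 0.000448), C1qc fell by 6.00 (adjusted p = 6.71e-05), Fcna fell by 5.12 (adjusted p = 2.91e-05) and Cd5l fell by 5.03 (adjusted p = 5.83e-06). Cd36 stood at 0.155 and 0.0409 TPM in LMPP and was at most 0.224 TPM in any lymphoid library, too low to be tested. The C1qa levels of LMPP thus lay within the range of the Pax5(+/+) pro-B libraries while Cd36 was near 0, but the tables were made in different ways. LMPP came from bone marrow and the later stages from thymus. The lineage antibody mix of LMPP was that of the lineage-negative gate above, and the mix of the thymic stages held CD11b and Gr1 but not Ly6C. At this step stage, organ and gate therefore cannot be told apart.

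Rag2(-/-) DN3a cells held more C1q and Fcna RNA than wild-type DN3a cells, mainly in 1 library. C1qa stood at 2.07 and 11.1 TPM against 0.197 and 0.433 TPM, C1qb at 1.51 and 9.88 TPM against 0 and 0.567 TPM, and C1qc at 3.06 and 9.30 TPM against 0.448 and 1.15 TPM. Fcna stood at 0.304 and 1.28 TPM. Both Rag2(-/-) libraries lay above both wild-type libraries for these genes, the second by far. In limma C1qa rose by 3.63 (adjusted p = 0.00240), C1qb by 3.96 (adjusted p = 0.0114), C1qc by 2.72 (adjusted p = 0.0303) and Fcna by 2.51 (adjusted p = 0.0128), beside 6.91% of all genes called higher and 26.4% in either direction. The macrophage list of 25 genes as a whole summed to 74.6 and 122 TPM in Rag2(-/-) libraries and to 103 and 114 TPM in wild-type libraries. Without the second Rag2(-/-) library C1qb, C1qc and Fcna were no longer called. From DN3a to DN3b C1qc, listed at 0 in both DN3b libraries, was the 1 gene called (-3.05, limma adjusted p = 0.00764), beside 39.2% of all genes called lower, 53.4% in either direction and a median of -0.41 for all genes. That call rests on values at or near 0 and turned when values of exactly 1 were kept.

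**Figure D5:**
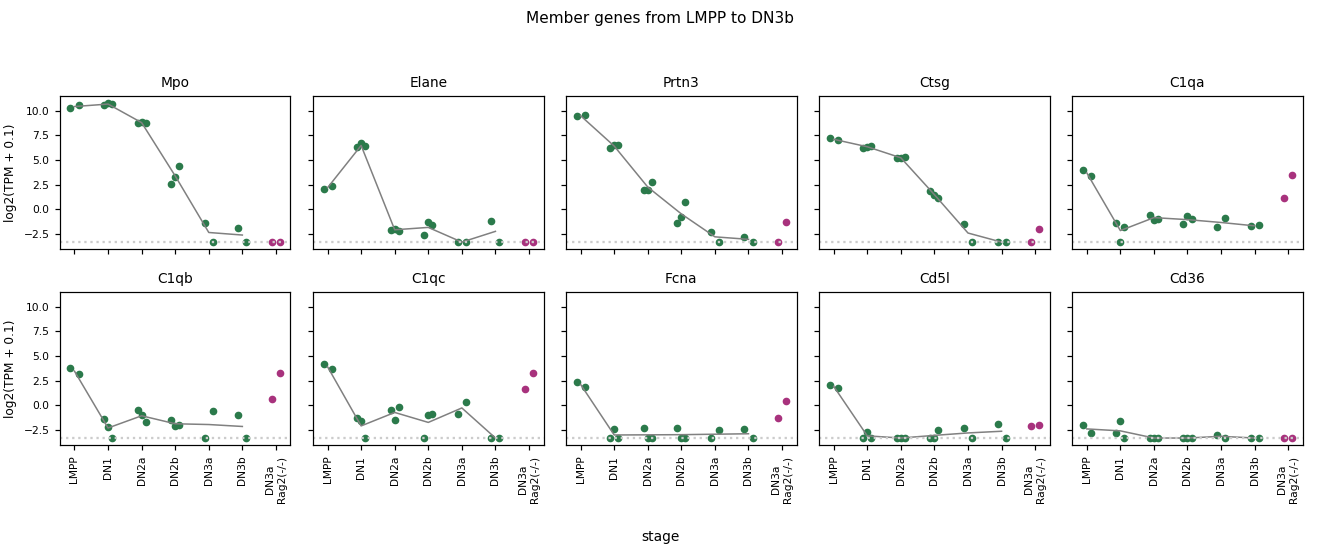
Level of the 10 genes in each of 17 lymphoid libraries from LMPP to DN3b and in Rag2(-/-) DN3a cells, as log2(TPM + 0.1), 1 point per library, with a line through the means of the wild-type stages and a dotted line at 0 TPM. Mpo stays at 1273 to 1769 TPM in LMPP and DN1 and reaches 0 by DN3a, while C1qa drops from 10.4 to 16.1 TPM in LMPP to 0.289 TPM or less in DN1.

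The granulocyte list without the 4 granule genes did not have the stage profile of Mpo. Its 17 genes summed to 233 and 249 TPM in LMPP, 69.2 to 77.3 TPM in DN1, 33.2 to 60.3 TPM in DN2a, 85.5 to 120 TPM in DN2b, 186 to 213 TPM in DN3a and 80.2 to 88.1 TPM in DN3b. In LMPP, DN1 and DN2a it was below the level of Mpo, whereas in Pax5(+/+) pro-B libraries the like sum, at 935 to 7221 TPM, was above it. The lymphoid tables and the Pax5 tables were made with different aligners and gene models, and levels across them were not tested.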

How the data were processed

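RNA-seq libraries of sorted mouse pro-B cells and progenitors were analysed from the deposited tables. For the 31 Pax5 libraries the authors trimmed reads to 50 nucleotides, aligned them with STAR 2.4.2a to GRCm38 and deposited TPM values per RefSeq gene. The tables of 8 libraries (Pax5(DCRD2/DCRD2) and the Prd experiment) lack gene names and were read in the row order of a named table. Beside their TPM the authors deposited a column of raw counts, which belongs to Pax5(+/+) replicate 3 or to Vav-Cre Pax5(fl/+) replicate 1 and served to check that order and to give the gene lengths for recovering reads. Of 14405 rows checked, 100.0% had the gene length implied by that order within 1%. For the 17 lymphoid libraries (TopHat 1.4.1, mm9) the authors deposited 2 TPM values per gene without defining them, treated here as a score: their mean was used, and entries of exactly 1 were read as 0.

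Groups and replicate numbers follow the labels, in which DN1, DN2a and DN2b each hold 2 libraries with the same number. log2(TPM + 0.1) was fitted with limma 3.58.1 (R 4.3.3; empirical Bayes with trend) over genes reaching 1 TPM, per experiment (8 central, 13 hemizygous and knockout, 11 homozygous, 6 Prd and 17 lymphoid libraries), with read length as a term where it varied, and p-values were adjusted by Benjamini-Hochberg. The fits of the Pax5 libraries, and not the lymphoid fit, were tested on simulated data. The simulation gave every gene the same dispersion, so that the wide spread of the granule genes was not part of it. Whole reads were recovered from the TPM values (100.0% whole within 0.02 reads) for edgeR 4.0.16 and DESeq2 1.42.0, which were alternatives, with other filters, scalings and left-out libraries. Figures and motif counts used Python 3.11.15. Promoters came from RefSeq (GRCm38.p6).

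The 10 genes and the wider lists were chosen with earlier results of these data known. Named were the 10 genes, genes among the 3 highest of a wider list, and the 5 genes most alike in profile to each set. Cd79a served as a check of labels.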

Additional observations from a re-analysis of the deposited data

How the results depend on the processing

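The number of the 10 genes called, summed over the contrasts of a fit, depended on the settings. Among the central deletions 9 calls became 1 with no filter on low TPM, 4 without the variance trend, 15 with edgeR and 16 with DESeq2, and 1 to 7 when a library was left out in turn. For the hemizygous deletions and Pax5 loss 18 calls became 10 with a replicate block and no read length term, and 12 to 19 with a library left out. For the homozygous deletions 6 calls became 1 with no filter, 3 with no read length term, 2 with a replicate block and no read length term, and 2 to 8 with a library left out. With 100-nt libraries only, 2 calls remained where the full fit had 5. In the Prd experiment 13 calls became 6 with no filter and 6 to 16 with a library left out. The F test over 8 genotypes called 2 genes with no filter, 10 with DESeq2, 1 without Pax5(DCRD1/-) and Pax5(DHD/DHD), and 3 to 7 with a library left out, against 6. The fits of 1 read length and the one without these genotypes were chosen after seeing the data.

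Over all genes the correlation of the replicate differences between groups ran from -0.276 to 0.142 and was over 0.1 in 1 of 6 homozygous and 1 of 21 lymphoid pairs of groups, so the numbers were taken as names only. With the replicate block the Prd experiment gave 12 calls, the lymphoid stages 31 against 32, and the central fit of mutant libraries alone 9 for Pax5(DOP/DOP) against Pax5(DHD/DHD), where the full fit had 5. The 4 genes gained there were Mpo, Elane, Prtn3 and Ctsg (limma adjusted p between 0.00522 and 0.00863), which were higher in the second library of all 3 central genotypes.

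Of 84 calls, 38 passed the threshold in every alternative run. Over 2005 alternative values 1756 passed it, 247 kept their direction only and 2 reversed. Reversed were Elane from DN2b to DN3a (1.29, adjusted p = 0.00821 in limma) and C1qc from DN3a to DN3b (0.41, adjusted p = 0.643), both when lymphoid entries of exactly 1 were kept as values, which lifts genes listed at 0. Lymphoid calls numbered 25 to 33 over all alternatives. Replicates of 1 genotype lay up to 84.7-fold apart in a granule gene, and 2 libraries per mutant genotype limit what these fits can call.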
